A study of Homo sapiens with 6 samples.

Results

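The 14-3-3 proteins are small adaptor proteins that work as dimers and bind serine or threonine phosphorylated stretches of other proteins, holding kinases, phosphatases and transcription factors in a given state or in the cytoplasm. RBFOX2 is an RNA-binding protein that recognises UGCAUG and is best known as a splicing regulator, with further binding in 3ʹ-UTRs. The INSCRIBE assay marks RNA near an antibody target: a purified fusion of the cytidine deaminase APOBEC1 and a nanobody against rabbit IgG (Apo1-Nb) is brought to a rabbit primary antibody in fixed cells, and the deaminase converts nearby C to U.

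RNA of methanol-fixed HEK293T cells, a human embryonic kidney line that another label spells HEK293XT, was read by PacBio long-read sequencing in 6 libraries, with 2 libraries from separate slides in each of 3 groups. RBFOX2-INSCRIBE received the anti-RBFOX2 antibody and Apo1-Nb, enzyme-only received Apo1-Nb without the antibody, and buffer-only received neither. Every group carried the same fixation and overnight incubation, and each deposited value was the fraction of the reads of one isoform that were edited at one position. All 6 members of the 14-3-3 family examined here, YWHAB, YWHAE, YWHAG, YWHAH, YWHAQ and YWHAZ, had listed sites, out of 7684 genes with any. They were taken by gene name from the GENCODE v44 annotation, and 13 of their 56 annotated isoforms were listed, out of 9831 isoforms in all. These isoforms held 1867 distinct edited positions on the isoform strand, of 603232 over all genes. The files hold neither read numbers nor expression levels, so the depth behind each fraction is not given and a C that is not listed is not shown to be unedited. The lowest fraction listed for an isoform gives only a lower limit to the reads at that position.

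Over all genes, the RBFOX2-INSCRIBE libraries listed 200892 and 206048 distinct edited Cs on the isoform strand, the enzyme-only libraries 86179 (replicate 2) and 153990 (replicate 3), and the buffer-only libraries 72882 and 71563. The enzyme-only libraries thus stood apart from each other. The 14-3-3 genes took between 0.42% and 0.439% of the sites of the 4 libraries that received enzyme, and 0.546% and 0.561% in the buffer-only libraries. Edits on the strand opposite to the annotated isoform were counted separately and numbered 4421 to 6812 per library. Within the family between 7 and 18 such edits were listed per library, all of them in YWHAH.

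The first comparison asked how many Cs of each 14-3-3 mRNA were edited with the RBFOX2 antibody and without it. YWHAG (chromosome 7, 76326799 to 76358991, minus strand, hg38), encoding 14-3-3 gamma, had 202 and 222 edited Cs with RBFOX2-INSCRIBE, 81 and 154 with enzyme only, and 85 and 75 with buffer only. YWHAQ (chromosome 2, 9583967 to 9630997, minus strand), encoding the theta protein, had 224 and 183 with RBFOX2-INSCRIBE, 61 and 149 with enzyme only, and 108 and 95 with buffer only. In both genes the RBFOX2-INSCRIBE libraries lay above all 4 others, as they did in the number of sites over all genes, and the controls overlapped each other.

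YWHAE (chromosome 17, 1344275 to 1400222, minus strand), encoding the epsilon protein, which favours pairing with other family members, had 179 and 149 edited Cs with RBFOX2-INSCRIBE, 58 and 98 with enzyme only, and 62 and 56 with buffer only. YWHAZ, encoding the zeta protein, had 175 and 184 against 63 and 140 with enzyme only, and 61 and 79 with buffer only. Both genes had the order of YWHAG and YWHAQ, with both RBFOX2-INSCRIBE libraries highest. Most genes averaged higher with RBFOX2-INSCRIBE on a log2 scale, 94.99% of those tested against buffer-only and 85.72% against enzyme-only. The share of all genes without overlap between libraries was not counted, nor was that of all isoforms, 3ʹ-UTR bins or UGCAUG copies. Separation of the groups, here and below, is therefore not a trait of the family. YWHAB (chromosome 20, 44885702 to 44908532, plus strand), encoding the beta protein, had few sites everywhere, with 29 and 28, then 25 and 26, then 22 and 13 in the same order of groups. Its groups did not overlap, but RBFOX2-INSCRIBE replicate 2 and enzyme-only replicate 3 were only 2 sites apart.

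YWHAH (chromosome 22, 31944522 to 31957603, plus strand), encoding the eta protein, was the exception. Its RBFOX2-INSCRIBE libraries held 55 and 138 edited Cs, below and above all of the other libraries, which held 74 and 94 with enzyme only and 71 and 73 with buffer only. The lowest fraction listed for its isoform was 0.171% in RBFOX2-INSCRIBE replicate 1 and 0.0806% in replicate 2, and between 0.0858% and 0.112% in the other 4 libraries. Sites at or above 0.171% were then counted in every library. There were 55 and 28 with RBFOX2-INSCRIBE, 14 and 28 with enzyme only, and 10 and 7 with buffer only. Both RBFOX2-INSCRIBE libraries then lay above both buffer-only libraries, but RBFOX2-INSCRIBE replicate 1 set this fraction and kept all 55 of its sites.

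The same matching, at the highest of the 6 lowest listed fractions of each isoform, was made for the most edited isoforms of the other genes. The library that set the fraction kept all its sites, among them those at its lowest listed fraction. It was RBFOX2-INSCRIBE replicate 1 in YWHAB and enzyme-only replicate 2 in the isoforms of the other genes. The orders at matched fractions are therefore given as a description. In YWHAQ, at 0.0858%, 85 and 97 sites were left with RBFOX2-INSCRIBE, 61 and 53 with enzyme only, and 26 and 15 with buffer only. In YWHAG, at 0.11%, there were 131 and 154, then 81 and 80, then 36 and 28, and in YWHAE, at 0.107%, 79 and 74, then 56 and 24, then 5 and 10. In these 3 genes RBFOX2-INSCRIBE stayed highest, and enzyme-only then lay above buffer-only, with which it had overlapped in the counts per gene. ENST00000395957 of YWHAZ lost the order: at 0.385% it had 21 and 22 with RBFOX2-INSCRIBE against 32 and 9 with enzyme only, and 2 and 1 with buffer only. Its shorter isoform ENST00000457309, at 0.254%, kept it, with 46 and 61, then 34 and 16, then 7 and 9. YWHAB, at 0.971%, had 25 and 19, then 1 and 14, then 12 and 3, and its controls overlapped.

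**Figure D1:**
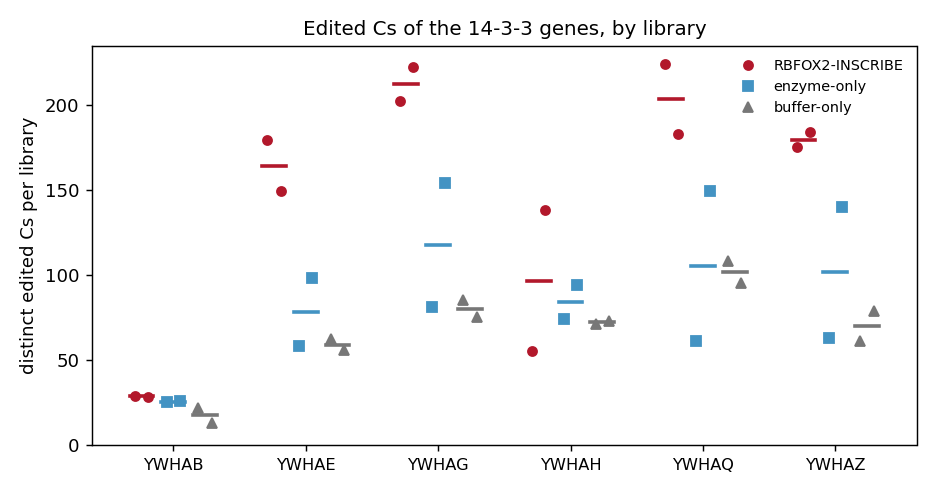
Distinct edited Cs (y axis, number per library) of each 14-3-3 gene (x axis) in the RBFOX2-INSCRIBE (circles), enzyme-only (squares) and buffer-only (triangles) libraries; each symbol is 1 library and each bar the mean of 2. The RBFOX2-INSCRIBE libraries lie highest in every gene except YWHAH, where they hold 55 and 138. Of all genes tested, 94.99% averaged higher with RBFOX2-INSCRIBE than with buffer only and 85.72% higher than with enzyme only, on a log2 scale.

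Differences were tested as log2 of edited Cs plus 0.5 with limma, adjusted over every gene that averaged 5 or more edited Cs. Against buffer-only, 4 of the 6 genes rose, beside 63.8% of the 4807 genes tested that were called higher. The log2 difference was 1.46 (SE 0.165, adjusted p = 3.98e-08) for YWHAE, 1.40 (SE 0.143, adjusted p = 8.46e-09) for YWHAG and 1.36 (SE 0.159, adjusted p = 6.18e-08) for YWHAZ. YWHAQ, at 1.00 (SE 0.141, adjusted p = 1.21e-06), rose less, and with all 3 groups in one fit it no longer passed (adjusted p = 0.0746). Without the trend and robust settings of limma these 4 genes were still called, beside 2678 of all 4807 genes called higher. Their adjusted p by limma were then much larger, at 0.0206 for YWHAE, 0.02086 for YWHAG, 0.0247 for YWHAZ and 0.04555 for YWHAQ. YWHAB, at 0.73 (adjusted p = 0.0907), and YWHAH, at 0.27 (adjusted p = 0.629), did not pass. The median over the family was 1.18 and over all genes 1.54, and all 6 members lay below the all-gene median. With the libraries scaled to the same total of edited Cs all 6 differences turned below 0, and YWHAQ was then called lower, at -0.49 (adjusted p = 0.0215), while the median over all genes was 0.10. Without either RBFOX2-INSCRIBE library no gene of the family, and none of all genes, was called.

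Against enzyme-only, 0 of the 6 genes passed, where 0.530% of 5092 genes were called higher by limma and 930 had an unadjusted p below 0.05, none of them a family member. All 6 log2 differences were above 0. They were 1.11 (95% interval -0.10 to 2.32) for YWHAE, 1.08 (-0.13 to 2.30) for YWHAQ, 0.93 (-0.28 to 2.14) for YWHAZ and 0.92 (-0.30 to 2.14) for YWHAG, against 0.16 for YWHAB and 0.06 for YWHAH. The family median of 0.92 stood beside 0.85 over all genes. The call turned on the enzyme-only libraries: without replicate 3, which had the more sites, 4 of the 6 genes were called higher (YWHAE, YWHAG, YWHAQ and YWHAZ, with log2 differences from 1.38 to 1.72), beside 2428 of all 5092 genes, and without replicate 2 only YWHAE was, at 0.73 (adjusted p = 0.0286), beside 238 of all genes.

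Enzyme-only against buffer-only also gave 0 of 6 members, with 0.0237% of 4216 genes called higher; 570 genes, none of them a member, had an unadjusted p below 0.05. Its log2 differences ran from -0.09 for YWHAQ to 0.58 for YWHAB, with a family median of 0.39 beside 0.69 over all genes. YWHAQ had 105.0 ± 62.2 edited Cs with enzyme only and 101.5 ± 9.19 with buffer only (mean ± SD, n = 2), and the intervals of all 6 genes included 0. The place of YWHAQ at the low end rested on enzyme-only replicate 2, without which it was at 0.55 and YWHAH at 0.38. At matched fractions YWHAQ had more sites with enzyme only than with buffer only. That same replicate set the matched fraction and kept all its sites, as given above.

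**Figure D2:**
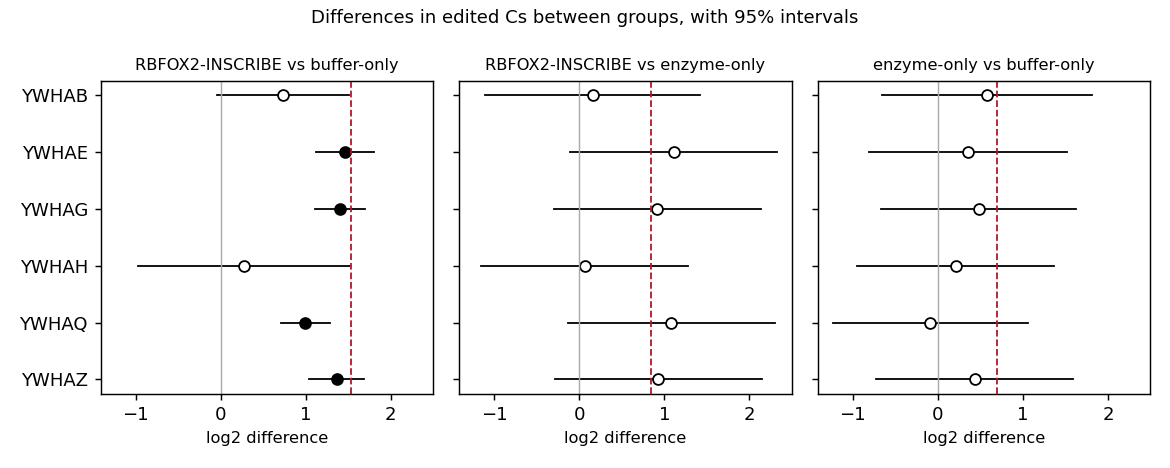
Log2 difference in edited Cs (x axis) of each 14-3-3 gene (y axis) in the 3 comparisons, with 95% intervals; filled circles passed the adjusted threshold of 0.05, open circles did not, and the dashed line is the median over all genes tested. Only YWHAE, YWHAG, YWHAQ and YWHAZ against buffer-only are filled, and all 6 genes lie left of the dashed line there.

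The isoforms were not edited equally. Each gene with more than 1 listed isoform had a leading one, and the counts of the others were lower by far except in YWHAZ. Of the 13 listed isoforms, 11 averaged 5 or more edited Cs with RBFOX2-INSCRIBE; the others were ENST00000372839 and the retained-intron transcript ENST00000631616, both of YWHAB. The share of an isoform's Cs that were edited, here called EditsC, gives its breadth of editing. It was 42.0% ± 5.53 (SD, n = 2) with RBFOX2-INSCRIBE in ENST00000238081 of YWHAQ, rank 4 of the 6201 isoforms that averaged 5 or more, and 37.3% ± 4.11 in ENST00000264335 of YWHAE, rank 15. The median of those isoforms was 2.33%.

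The same isoforms had many listed Cs in the controls. Buffer-only held no deaminase, and the paper ascribes such calls in its short-read data to RNA damage or to reverse transcription or PCR errors. Their source was not tested here. ENST00000238081 had an EditsC of 21.8% ± 12.6 with enzyme only and 20.8% ± 1.64 with buffer only, and ranked 29 and 9. With buffer only its median listed fraction, 0.0522% and 0.0526%, was almost the lowest listed, 0.0521% and 0.0525%. With RBFOX2-INSCRIBE the median was 0.0744% and 0.086%, and the lowest 0.0372% and 0.043%. ENST00000248975, the only listed isoform of YWHAH, ranked 22 with buffer only, at 17.7% ± 0.347, and 118 with RBFOX2-INSCRIBE, at 23.7% ± 14.4. ENST00000307630 of YWHAG ranked 87 with RBFOX2-INSCRIBE, at 25.6% ± 1.71, and 123 with buffer only, at 9.66% ± 0.854. The high ranks of these mRNAs were therefore held without antibody or enzyme too.

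Weighting each site by its fraction gave another order. The summed edit fraction of an isoform is the sum of its listed fractions, which is the mean number of listed edits per read. For ENST00000238081 of YWHAQ it was 0.227 and 0.197 with RBFOX2-INSCRIBE, 0.0701 and 0.119 with enzyme only, and 0.0759 and 0.0614 with buffer only. With RBFOX2-INSCRIBE it ranked 4468 of 6201, below the median of 0.335. ENST00000307630 of YWHAG had 0.444 and 0.475 with RBFOX2-INSCRIBE, 0.234 and 0.254 with enzyme only, and 0.137 and 0.113 with buffer only, so the 3 groups did not overlap and stood in that order.

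ENST00000264335 of YWHAE had a summed edit fraction of 0.202 and 0.32 with RBFOX2-INSCRIBE, 0.0761 and 0.107 with enzyme only, and 0.0497 and 0.0575 with buffer only. ENST00000248975 of YWHAH had 0.125 and 0.194, 0.104 and 0.123, and 0.0725 and 0.0795 in the same order. On this measure the 3 groups separated in YWHAH too, though RBFOX2-INSCRIBE replicate 1 lay just above enzyme-only replicate 3. The lowest fraction listed in each library was 0.0372% to 0.0858% across libraries in ENST00000238081 of YWHAQ and 0.398% to 0.971% in ENST00000353703 of YWHAB, whose EditsC with RBFOX2-INSCRIBE was 4.05% ± 0.0 and whose summed edit fraction, 0.428 and 0.423, was close to that of YWHAG. The part of the lowest listed fraction in the order of EditsC was not tested.

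**Figure D3:**
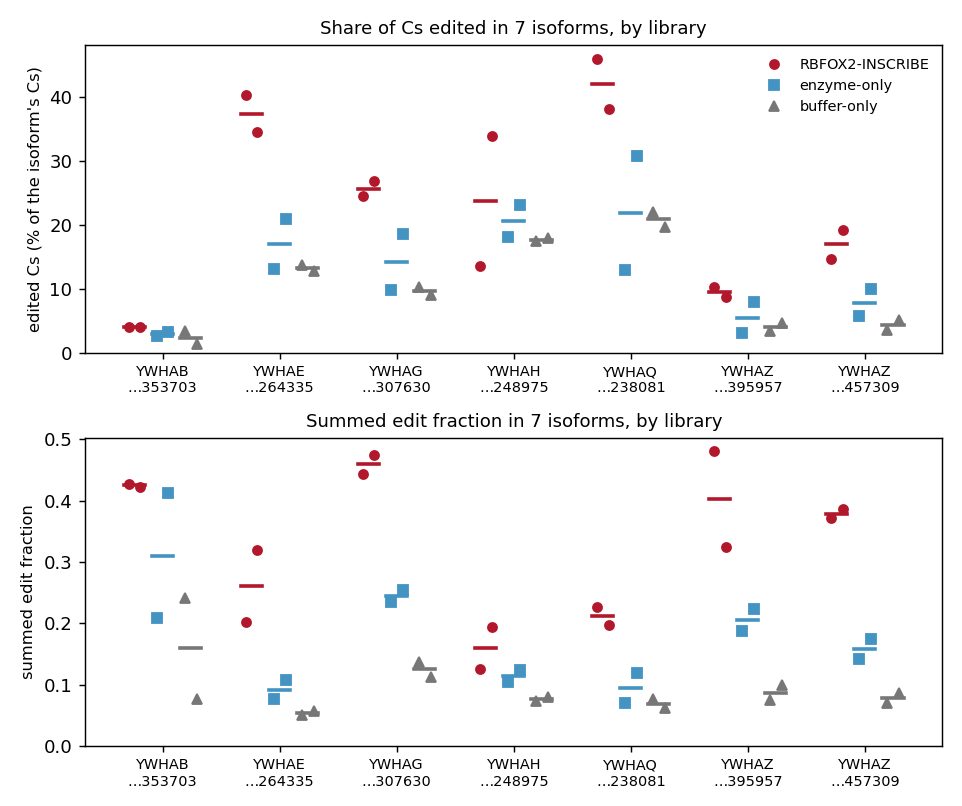
Top, share of the Cs of an isoform that were edited (y axis, percent); bottom, summed edit fraction (y axis, mean listed edits per read), for the most edited isoform of each gene and the shorter YWHAZ isoform (x axis); symbols are libraries and bars means of 2. ENST00000238081 of YWHAQ is highest in the top panel and among the lower isoforms in the bottom panel.

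By isoform, 7 of the 11 tested rose against buffer-only, beside 60.0% of 5366 isoforms called higher. They were ENST00000238081 and ENST00000381844 of YWHAQ, ENST00000264335 of YWHAE, ENST00000307630 of YWHAG, and ENST00000395957, ENST00000457309 and ENST00000353245 of YWHAZ. Their log2 differences ran from 1.00 to 3.67, the last in ENST00000353245, and none of the 11 was called without RBFOX2-INSCRIBE replicate 1 or without replicate 2, where 361 and 241 of all isoforms were. ENST00000353245 passed the filter of 5 edited Cs only through the RBFOX2-INSCRIBE libraries, which favours a large difference and a call. Under the summed edit fraction, a measure added after the data were seen, 5 of the 11 rose, beside 35.2% of the same isoforms. These 5 were the leading isoforms of YWHAE, YWHAG and YWHAQ and the 2 most edited of YWHAZ, with log2 differences from 1.50 to 2.15.

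Against enzyme-only, 0 of 11 isoforms passed by number of edited Cs, where 0.0524% of 5725 were called higher by limma, and 3 of the 11 and 916 of all had an unadjusted p below 0.05. Without enzyme-only replicate 3, 8 of the 11 were called, beside 1782 of all 5725. By summed edit fraction 0 of 11 passed and 0% of all isoforms were called higher, with 3 members and 503 of all at an unadjusted p below 0.05. ENST00000353245 of YWHAZ had 19 and 14 edited Cs with RBFOX2-INSCRIBE, none listed in either enzyme-only library, and 0 and 3 with buffer only. Its difference in number ranked 7 of 5725 (adjusted p = 0.116 by limma), but it passed the filter only through RBFOX2-INSCRIBE, which favours a high rank. Its lowest listed fractions, 1.96% and 2.08% with RBFOX2-INSCRIBE, were above those of every leading isoform. Between enzyme-only and buffer-only, 0 of 8 isoforms passed by number, beside 0.810% of 4447 called higher and with 0 of the 8 and 679 of all at an unadjusted p below 0.05. By summed edit fraction 0 of 8 passed, beside 0%, with 1 of the 8, ENST00000395957 of YWHAZ, and 1195 of all at an unadjusted p below 0.05.

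YWHAZ lies on chromosome 8 (hg38, 100916523 to 100953388, minus strand), and was the gene with the most listed isoforms, 4 of the 23 annotated. Its 2 most edited isoforms share the coding sequence and differ in the annotated 3ʹ-UTR, which is 4168 nt long in ENST00000395957 and 2114 nt in ENST00000457309. The longer one had 109 and 92 edited Cs with RBFOX2-INSCRIBE, 32 and 83 with enzyme only, and 35 and 49 with buffer only. The shorter one had 86 and 113, 34 and 58, and 21 and 30. The gain over buffer-only, per C, differed between them by -0.69 (95% interval -2.07 to 0.69; adjusted p = 0.706, longer minus shorter), within the spread between libraries.

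All listed 3ʹ-UTR edits of the longer YWHAZ isoform lay in the stretch shared with the shorter one. The shared 2114 nt held 76 and 65 edited Cs with RBFOX2-INSCRIBE, 18 and 51 with enzyme only, and 18 and 27 with buffer only, among 389 Cs. The 2054 nt beyond it held 402 Cs, and no edited C was listed there in any of the 6 libraries. Whether reads assigned to this isoform covered that stretch was not tested. The named positions of YWHAZ, listed in both RBFOX2-INSCRIBE libraries and in no control, were 100920016 in the 3ʹ-UTR of ENST00000395956 (5.88% and 7.69%), an isoform with 17 and 10 edited Cs, and 100924950 in the coding sequence of ENST00000457309 (0.8% and 0.704%). They lay 162 and 306 nt from the nearest UGCAUG, the sequence bound by RBFOX proteins.

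The isoform pairs of YWHAE and YWHAQ did not differ beyond their spread either. ENST00000571732 of YWHAE had 14 and 4 edited Cs with RBFOX2-INSCRIBE, 2 and 12 with enzyme only, and 3 and 1 with buffer only. ENST00000381844 of YWHAQ had 14 and 15, then 0 and 6, then 6 and 5. Of the 3 pairs tested, 0 passed in either comparison, where 0% of 531 pairs were called against buffer-only (51 at an unadjusted p below 0.05, by limma) and 0% of 583 against enzyme-only (25 at that level); none of the 3 was below that level in either.

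The place of the edits along the mRNA differed between members. In ENST00000307630 of YWHAG, 190 and 202 of the edited Cs with RBFOX2-INSCRIBE lay in the 3ʹ-UTR, which had 36.6 ± 1.59 edited Cs per 100 Cs, beside 7.32 ± 2.76 in the coding sequence (SD, n = 2). ENST00000264335 of YWHAE had the opposite order, with 46.8 ± 5.01 per 100 Cs in the coding sequence and 34.5 ± 3.93 in the 3ʹ-UTR. ENST00000238081 of YWHAQ had 37.8 ± 10.7 and 48.5 ± 0.587. With buffer only the corresponding values were 1.95 ± 0.0 and 13.6 ± 1.32 in YWHAG, 15.6 ± 2.01 and 12.1 ± 0.281 in YWHAE, and 23.8 ± 5.76 and 19.3 ± 1.47 in YWHAQ. The contrast between YWHAG and YWHAE was therefore present in the controls.

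Whether the gain was larger in the 3ʹ-UTR than in the coding sequence was tested directly. Of the 6 isoforms tested, 1 per gene, 0 passed in either comparison. Among all isoforms 0% of 1770 were called against buffer-only by limma, with 436 at an unadjusted p below 0.05, and 0% of 2004 against enzyme-only, with 168; no member was at that level. The 3ʹ-UTR minus coding difference against buffer-only ran from -0.31 (95% interval -1.72 to 1.09) in YWHAG to 0.70 (-0.54 to 1.94) in YWHAH, with a family median of 0.61 beside 0.86 over all isoforms. Against enzyme-only the family median was 0.57 beside 0.34 over all isoforms, and YWHAG was at 0.41.

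Along the 3ʹ-UTR the profiles took different shapes. In YWHAG and YWHAQ the edits ran to the annotated end: with the 3ʹ-UTR in 5 bins of equal length, the last bin had 43.8 ± 5.81 edited Cs per 100 Cs in ENST00000307630 and 48.7 ± 1.86 in ENST00000238081 with RBFOX2-INSCRIBE, against 22.6 ± 12.6 and 19.7 ± 5.58 with enzyme only and 17.1 ± 2.91 and 17.1 ± 1.86 with buffer only. In ENST00000264335 of YWHAE the bin before the last had 44.2 ± 3.07 with RBFOX2-INSCRIBE and the last only 3.66 ± 5.17, where no edit was listed in any control library. In ENST00000353703 of YWHAB the first bin had 11.9 ± 1.12 and the last had none listed in any library. In ENST00000457309 of YWHAZ the middle bin was highest, with 34.0 ± 8.84 against 18.1 ± 1.96 with enzyme only and 4.17 ± 1.96 with buffer only, and the 3 groups did not overlap there.

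**Figure D4:**
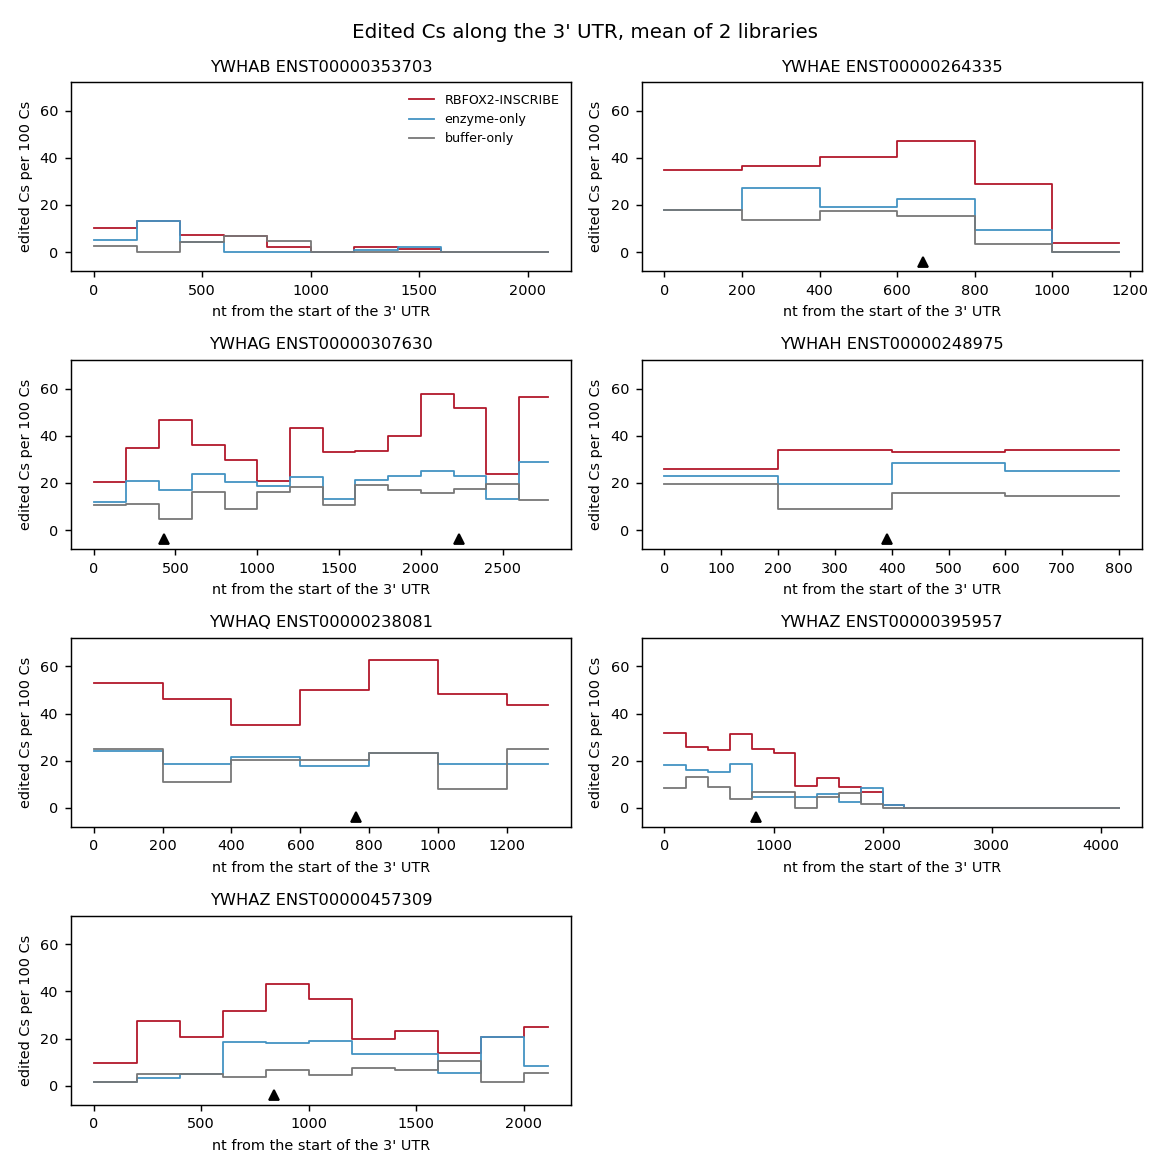
Edited Cs per 100 Cs (y axis) in bins of 200 nt along the 3ʹ-UTR (x axis, nt from its start) of 7 isoforms, as the mean of 2 libraries for RBFOX2-INSCRIBE (red), enzyme-only (blue) and buffer-only (grey); black triangles mark UGCAUG. The profile of YWHAZ ENST00000395957 is at 0 beyond the 2114 nt shared with ENST00000457309.

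UGCAUG was searched on the isoform strand, since RBFOX2 binds the RNA itself. In their most edited isoforms YWHAE, YWHAH, YWHAQ and YWHAZ had 1 copy in the 3ʹ-UTR and YWHAG had 2, while YWHAB had none in its 2094 nt. YWHAQ and YWHAZ each had a further copy in the coding sequence. Of the 8745 protein-coding isoforms with a listed site, 38.1% had the motif in the 3ʹ-UTR, and 44.4% of the 4687 whose 3ʹ-UTR length lay within the range of these members. The 3ʹ-UTR copies of YWHAE, YWHAG, YWHAH and YWHAQ are printed here because the edits around them are compared between groups. They are written 5ʹ to 3ʹ as DNA on the minus strand for YWHAE, YWHAG and YWHAQ and on the plus strand for YWHAH, with the motif in capitals and, where one falls in the window, a named edited C in a capital of its own.
YWHAE 3ʹ-UTR, chr17:1344759-1344788 (hg38): ggaaaagccTGCATGcctgttCaattcttt
YWHAG 3ʹ-UTR, first copy, chr7:76329128-76329157: ctgtctcggctcTGCATGttttccagggtg
YWHAG 3ʹ-UTR, second copy, chr7:76327328-76327357: gatacaatattgTGCATGctagtgttgtat
YWHAH 3ʹ-UTR, chr22:31957168-31957197: taagcagtaCatcttgTGCATGcaaaaatg
YWHAQ 3ʹ-UTR, chr2:9584501-9584530: taaagTGCATGtcatttcttaataCactag

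Within 50 nt of the YWHAQ 3ʹ-UTR copy, 10 and 10 Cs were edited with RBFOX2-INSCRIBE, 2 and 2 with enzyme only, and 4 and 2 with buffer only, of 17 Cs. Per 100 Cs this was 58.8 with RBFOX2-INSCRIBE, beside 47.8 in the rest of that 3ʹ-UTR, and 11.8 with enzyme only, beside 21.4 in the rest. The RBFOX2-INSCRIBE libraries lay above all 4 controls. The mean edit per C in this window was 0.116% and 0.111% with RBFOX2-INSCRIBE and at most 0.013% in the control libraries. These values are for ENST00000238081. In ENST00000381844, which had few sites, the counts at the same copy were 1 and 0 with RBFOX2-INSCRIBE, 0 and 2 with enzyme only, and 0 and 0 with buffer only.

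Around the second YWHAG copy, 9 and 10 of 19 Cs were edited with RBFOX2-INSCRIBE, 1 and 6 with enzyme only, and 2 and 1 with buffer only. Around the first copy 11 and 14 of 28 Cs were edited with RBFOX2-INSCRIBE, 7 and 7 with enzyme only, and 2 and 1 with buffer only. Both copies had the RBFOX2-INSCRIBE libraries above every control. The rest of the 3ʹ-UTR had 35.7 edited Cs per 100 Cs with RBFOX2-INSCRIBE, below both copies, and 19.7 with enzyme only, below the first copy and above the second, which had 18.4.

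At the copies of YWHAE and YWHAH, RBFOX2-INSCRIBE was not above enzyme-only in every library. Around the YWHAE copy the counts were 19 and 11 of 34 Cs, then 7 and 11, then 6 and 7, and RBFOX2-INSCRIBE overlapped enzyme-only. Per 100 Cs both groups were higher near it than in the rest, with 44.1 beside 33.0 for RBFOX2-INSCRIBE and 26.5 beside 15.8 for enzyme only. Around the YWHAH copy they were 4 and 10 of 24 Cs, then 3 and 8, then 4 and 1, with overlap in every comparison, and RBFOX2-INSCRIBE had 29.2 per 100 Cs near it beside 30.7 in the rest. Around the YWHAZ copy, in its most edited isoform ENST00000395957, 4 and 2 of 11 Cs were edited, then 0 and 2, then 1 and 0, and RBFOX2-INSCRIBE overlapped enzyme-only. In ENST00000457309 the counts at the same copy were 6 and 4, then 1 and 2, then 1 and 0, with RBFOX2-INSCRIBE highest.

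The coding copy of YWHAQ lay 72 nt into the coding sequence, and had no such order: 10 and 7 of 33 Cs within 50 nt were edited with RBFOX2-INSCRIBE, 3 and 12 with enzyme only, and 10 and 6 with buffer only. YWHAZ held UGCAUG at the same distance from its start codon, with 24 of 30 bases around it identical to YWHAQ. Around this YWHAZ copy 6 and 4 of 20 Cs were edited in ENST00000395957 with RBFOX2-INSCRIBE. With enzyme only there were 3 and 8, and with buffer only 3 and 2. The aligned coding windows of the other members, shown to place the motif within a conserved stretch, did not hold it. Capitals mark the 6 bases aligned with UGCAUG. The YWHAE, YWHAG and YWHAH windows cross an exon junction and are therefore given without coordinates.
YWHAQ coding, chr2:9630363-9630392, minus strand: gacatggccaccTGCATGaaggcagtgacc
YWHAB coding, chr20:44901600-44901629, plus strand: gatatggctgcaGCCATGaaggcagtcaca
YWHAE coding: gaaatggtggagTCAATGaagaaagtagca
YWHAG coding: gacatggccgcgGCCATGaagaacgtgaca
YWHAH coding: gacatggcctccGCTATGaaggcggtgaca

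With the genes and exons of the family pooled, a larger share of edited Cs than of all Cs lay within 50 nt of UGCAUG, in all groups. Of the 4982 exonic Cs of the 13 isoforms, 3.73% lay within 50 nt of a copy. The share among edited Cs, divided by that share, was 2.29 ± 0.222 with RBFOX2-INSCRIBE, 2.29 ± 0.314 with enzyme only and 1.84 ± 0.558 with buffer only (SD, n = 2). RBFOX2-INSCRIBE and enzyme-only thus had the same mean ratio at 50 nt (exact permutation test, 2-sided, p = 1.0), and RBFOX2-INSCRIBE against buffer-only gave p = 0.67 by the same exact test; 2 libraries against 2 cannot go below 0.33. At the other windows the 2 groups did not overlap. The ratios of the RBFOX2-INSCRIBE libraries were 2.88 and 2.29 within 25 nt, against 2.05 and 2.09 with enzyme only, 2.18 and 2.05 against 1.88 and 1.93 within 100 nt, and 1.88 and 1.80 against 1.64 and 1.69 within 200 nt. Within the 3ʹ-UTR alone the ratios were 1.76 ± 0.123, 1.71 ± 0.124 and 1.23 ± 0.403, and buffer-only replicate 2 was at 0.944, below the background. The Cs counted as background included stretches in which no library listed any edit. They also included 1615 Cs of YWHAB, which had few sites and no copy in the 3ʹ-UTR or coding sequence of its most edited isoform. The ratio was not adjusted for such differences between genes, so values above 1 are not read as nearness to the motif within a gene.

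The base before the edited C separated the groups where it was A or G, and less clearly where it was C. APOBEC1 is known to prefer A or U at that place. Of the exonic Cs of the family, 21.9% follow A and 24.8% follow G. With RBFOX2-INSCRIBE 35.9% ± 0.562 of the edited Cs followed A and 20.5% ± 0.000816 followed G (SD, n = 2). With buffer only the order was the reverse, with 18.3% ± 0.48 after A and 35.8% ± 0.275 after G. Enzyme-only lay between them, with 28.9% ± 5.37 after A and 27.3% ± 5.16 after G. No library of one group overlapped another in either share, and each comparison reached the smallest p that 2 against 2 allows, 0.33 (exact permutation test, 2-sided). After U the shares were 30.7% ± 0.483 with RBFOX2-INSCRIBE, 29.7% ± 1.33 with enzyme only and 22.7% ± 0.547 with buffer only. There RBFOX2-INSCRIBE and enzyme-only overlapped (exact permutation test, 2-sided, p = 0.67). Over all isoforms the shares after A were 40.6% ± 0.6, 35.5% ± 3.32 and 19.3% ± 0.402 in the same order of groups.

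**Figure D5:**
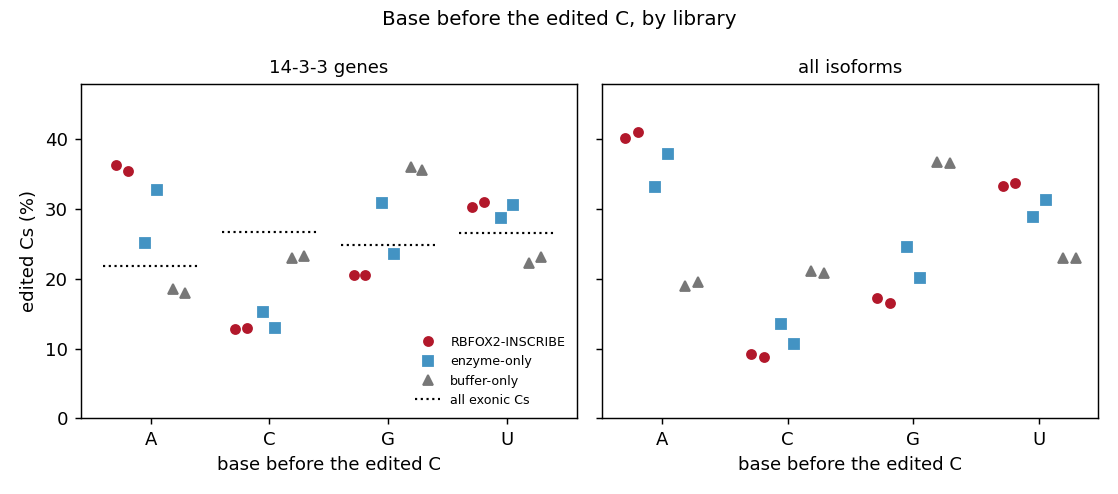
Share of edited Cs (y axis, percent) by the base before them (x axis) in each library of the 3 groups, for the 14-3-3 genes (left) and all isoforms (right); dotted lines give the shares over all exonic Cs of the family. A precedes the most edited Cs with RBFOX2-INSCRIBE and G the most with buffer only, in the family and over all isoforms.

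The same positions came back between the RBFOX2-INSCRIBE libraries. In the family 460 positions were listed in both of them, 53.2% of the sites of the library with fewer, against 80 in both enzyme-only libraries (22.1%) and 80 in both buffer-only libraries (20.5%). Over all genes these shares were 25.1%, 13.4% and 9.24%. YWHAQ had the highest share, with 126 positions or 68.9%, and YWHAB the lowest, with 1 position or 3.57%. The number of edited Cs differs between groups and sets how many positions can be shared, so the shares are given as a description. Of the 460 positions, 137 were listed in none of the 4 control libraries, a smaller share than the 26100 of 50366 over all genes: 40 in YWHAG, 35 in YWHAZ, 31 in YWHAE, 24 in YWHAQ, 7 in YWHAH and 0 in YWHAB. No position was listed in all 6 libraries, since the authors removed edits shared by all samples as putative variants.

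Among these positions, those with the highest mean fraction are named for each gene. In YWHAQ it was chr2:9584506, 14 nt downstream of the 3ʹ-UTR UGCAUG and the capital C of its window above, edited in 0.63% and 0.851% of the ENST00000238081 reads. In YWHAG they were chr7:76327373, 28 nt upstream of the second UGCAUG copy (0.637% and 0.423%), and chr7:76329089, 51 nt from the first (0.708% and 0.322%). In YWHAE it was chr17:1344767, 7 nt from UGCAUG (0.162% and 0.379%), and in YWHAH chr22:31957177, also 7 nt from it (0.172% and 0.403%), which tied exactly with a second position 250 nt away. At both YWHAH positions the 0.172% of RBFOX2-INSCRIBE replicate 1 was almost the lowest fraction listed there for the isoform, 0.171%, and equalled its median. All positions named here are single sites chosen by their fraction. Of the 10 positions so named, 2 in each of 5 genes, 5 lay within 51 nt of a motif and 5 lay 162 nt or more from any copy. Of the 5 nearer ones chr7:76329089, at 51 nt, lay just outside the 50 nt window used above. Within that window lay 9.14% and 7.97% of all family sites with RBFOX2-INSCRIBE, and 3.73% of the exonic Cs. The 5 farther positions were both YWHAZ positions and the 3 shown here with the edited C in capitals.
YWHAE coding, chr17:1361110-1361139, minus strand, 890 nt from UGCAUG: ttccgtattctactaCgaaattcttaattc
YWHAH 3ʹ-UTR, chr22:31957424-31957453, plus strand, 250 nt from it: caattgtttaagaatCatggatttattttt
YWHAQ 3ʹ-UTR, chr2:9585017-9585046, minus strand, 506 nt from it: taagtaactcccaaaCacttatgtagagga

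The fractions of these 3 sites were 0.163% and 0.316% in YWHAE, 0.172% and 0.403% in YWHAH, and 0.298% and 0.215% in YWHAQ. A wider view of the family's highest fractions came from the position with the largest group mean in each gene. In YWHAG this was chr7:76327189, edited in 0.897% and 1.47% of reads with RBFOX2-INSCRIBE, in 0.225% in enzyme-only replicate 3, and not listed elsewhere. In the other genes it came from an isoform with few sites or from a single library, such as 80% at chr20:44907689 in ENST00000372839 of YWHAB, listed in RBFOX2-INSCRIBE replicate 1 alone.

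The gene nearest to each member over the 6 libraries, by Euclidean distance of log2 edited Cs plus 0.5 among 4807 genes, was RANBP2 for YWHAG (distance 0.14), TMBIM6 for YWHAQ (0.24), MAPRE1 for YWHAZ (0.28), PPP2CA for YWHAE (0.30) and WDR5 for YWHAB (0.41). YWHAH had no gene as near, the closest being TPR at 0.97. RANBP2 had 209 and 230 edited Cs with RBFOX2-INSCRIBE, 81 and 147 with enzyme only, and 80 and 77 with buffer only, which differs from YWHAG by at most 8 sites in any library.

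Genes whose proteins bind 14-3-3 proteins through phosphorylated sites were counted beside the family, together with SFN, the remaining 14-3-3 gene, which did not pass the filter on low counts in any comparison. Of 45 listed, 19 could be tested against buffer-only and 8 rose, beside the 63.8% of all genes, with a median log2 difference of 1.25. Those named, by smallest p, were LATS1 (2.14), the Hippo pathway kinase, CDKN1B (2.16), the cell cycle inhibitor p27, DENND4A (2.18), FOXO1 (1.63), a transcription factor held in the cytoplasm by 14-3-3 proteins, and SSH1 (3.57), the cofilin phosphatase. Against enzyme-only 0 of 20 passed, with LATS1 at 1.98 (adjusted p = 0.0882), and between enzyme-only and buffer-only 0 of 17 passed.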

How the data were processed

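The authors sequenced PacBio Kinnex libraries, mapped the reads to hg38 with pbmm2, assigned them to isoforms with IsoQuant, and deposited for each library the edit fraction at each position of each isoform, after removing known variants and edits common to all samples. The annotation they used is not given in the sources used here. Read numbers were not analysed here, so intervals per site cannot be given. The 1867 positions were placed on GENCODE v44 transcripts, and 100% of exonic edits fell on a reference C. Distinct edited Cs on the gene strand were counted per gene, isoform and region, and tested as log2(count + 0.5) with limma 3.58.1 (trend, robust; R 4.3.3), 2 groups at a time, with Benjamini-Hochberg adjustment over all features averaging 5 or more edited Cs, called at 0.05. Shares were compared by exact permutation over libraries. Code was tested on simulated data. Members and lists, among them the partner list, were chosen with earlier results of these data known. Named isoforms averaged 5 or more edited Cs with RBFOX2-INSCRIBE; named sites were, per gene, the 2 highest by mean fraction listed in both RBFOX2-INSCRIBE libraries and no other, plus the highest group mean; named partners were the 6 of smallest p, of which 1 is not reported here; named UGCAUG copies are all copies rather than 1 per gene. Replicate numbers follow the sample titles, and enzyme-only replicates are 2 and 3. Replicates were separate slides of one cell line, so p-values measure the spread between slides. Alternatives were scaling, pseudocount, filters, minimum fraction, both strands, other fits, leave-one-out, and the summed edit fraction (sum plus 0.01, log2), added after the data were seen.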

Additional observations from a re-analysis of the deposited data

How the results depend on the processing

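The number of genes called against buffer-only went from 4 to 1, that one being lower, with libraries scaled to the same total of edited Cs (690 of all genes called in place of 3072), and to 2 with fractions of at least 0.02 (3 members and 1825 genes testable, 845 called). The log2 differences that turned with scaling to the same total were -0.73 for YWHAB, -0.024 for YWHAE, -0.087 for YWHAG, -1.21 for YWHAH, -0.49 for YWHAQ and -0.12 for YWHAZ against buffer-only, -0.65 for YWHAB and -0.75 for YWHAH against enzyme-only, and, for enzyme-only against buffer-only, -0.080 for YWHAB, -0.32 for YWHAE, -0.19 for YWHAG, -0.46 for YWHAH and -0.24 for YWHAZ; this scaling took the median of all genes from 1.54 to 0.10, from 0.85 to 0.05 and from 0.69 to 0.04. Scaling to the same number of opposite-strand edits gave -0.20 for YWHAB and -0.29 for YWHAH against enzyme-only and 0.17 for YWHAQ between the controls. Fractions of at least 0.02 gave -0.60 for YWHAB against enzyme-only and -0.18 for YWHAZ between the controls. Isoforms called against buffer-only fell from 7 to 0 under the scaling to the same total and with fractions of at least 0.02, and to 4 with all 3 groups in one fit, where the genes called fell from 4 to 3 with the loss of YWHAQ; against enzyme-only they went from 0 to 1 with a pseudocount of 1.

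Leaving out 1 library each, genes called ranged from 0 to 5 against buffer-only and from 0 to 4 against enzyme-only, and isoforms called from 0 to 8 in both. YWHAH ranged from -0.39 to 0.93 against buffer-only and from -0.60 to 0.72 against enzyme-only. Between the controls YWHAE ranged from -0.023 to 0.73, YWHAQ from -0.73 to 0.55 and YWHAZ from -0.14 to 1.01. The difference in the UGCAUG ratio, RBFOX2-INSCRIBE minus enzyme-only, was -0.00158 at 50 nt and ranged from -0.22 to 0.22 without 1 library; it was 0.517 within 25 nt, 0.213 within 100 nt, 0.175 within 200 nt, 0.0763 for GCAUG and 0.0499 in the 3ʹ-UTR only. With fractions of at least 0.02 the mean ratio was 2.2 with RBFOX2-INSCRIBE and 2.33 with enzyme only. The libraries of these groups overlapped at 50 nt, for GCAUG, in the 3ʹ-UTR only and with fractions of at least 0.02. They did not overlap within 25, 100 or 200 nt. Fractions of at least 0.02 gave no value for YWHAG, YWHAH and YWHAQ, for YWHAE between the controls, or for the 3ʹ-UTR minus coding difference against buffer-only. The causes were not tested.

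Same-numbered RBFOX2-INSCRIBE and buffer-only libraries deviated together with a correlation of 0.026 over 4807 genes, so the numbers were not taken to pair them. With the title numbers as a replicate block 4 genes and 9 isoforms were called against buffer-only, beside 3033 of all 4807 genes and 2989 of all 5366 isoforms; the other numbering in the labels, as a replicate block, gave the same counts against buffer-only and 0 genes and 1 isoform against enzyme-only, beside 33 of 5092 and 69 of 5725. Between the title numbers, RBFOX2-INSCRIBE and enzyme-only share 1 number only, and no block could be made. All other counts of calls kept within 1.5 times their value. Read numbers, which would set how low a fraction can be listed, were not analysed here.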
